A study of Mus musculus with 6 samples.

Results

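The 10 genes described here are the core of the microRNA (miRNA) pathway, namely *Drosha*, *Dgcr8*, *Xpo5*, *Dicer1*, the Argonaute genes *Ago1*, *Ago2*, *Ago3* and *Ago4*, and the Argonaute partners *Tnrc6a* and *Tnrc6b*. They were chosen by name, as the gene rows that carry one of these symbols alone or within a joined name, and all 10 were found under their own name among 23698 rows. The study asked how mRNA isoforms and translation differ between wild-type keratinocytes and squamous cell carcinoma (SCC) cells of the mouse. The libraries analysed here all come from cultured SCC cells, called SCCc, with the genotype HrasG12V; Tgfbr2 fl/fl KO, an activated *Hras* together with a knockout of the floxed TGF-β type II receptor gene. The labels describe them as keratinocytes isolated from newborn back skin and used at passages 10 to 15. There were 3 libraries, 1 of ribosome profiling and 2 RNA-seq replicates, and a long-read library of SCC cells and libraries of other cells were not analysed here.

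In the canonical pathway, Drosha and its partner Dgcr8 cut the primary transcript in the nucleus, exportin 5 carries the hairpin to the cytoplasm, Dicer trims it to a short duplex, and an Argonaute protein keeps a single strand as a guide to mRNAs. Tnrc6 proteins bind Argonaute and recruit the deadenylases that shorten the poly(A) tail and silence the mRNA. In mouse skin, deletion of *Dicer1* or *Dgcr8* in the epidermis is known to disturb the hair follicle, and the pathway feeds back on itself, since the Microprocessor cuts hairpins in the *Dgcr8* mRNA and the *Dicer1* mRNA is a known target of let-7 and of the miR-103 and miR-107 pair.

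The sequences behind these loops are shown first. The mature miRNAs are from RefSeq (GRCm38.p6), all 6 that were looked up were found, and capitals mark the seed, bases 2 to 8.
miR-1306-5p: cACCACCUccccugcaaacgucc
miR-1306-3p: aCGUUGGCucugguggugaug
let-7a-5p: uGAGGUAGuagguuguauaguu
let-7b-5p: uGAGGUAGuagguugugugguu
miR-103-3p: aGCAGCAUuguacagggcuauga
miR-107-3p: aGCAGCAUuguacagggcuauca
Both let-7 species share a seed, as do miR-103-3p and miR-107-3p, while the arms of miR-1306 carry seeds of their own. The miR-1306 hairpin is at chr16:18284239-18284317 on the minus strand, in exon 2 of *Dgcr8*, and all 79 of its bases are coding sequence of that gene. In the counted regions the *Mir1306* row had a length of 0, and the *Dgcr8* CDS was counted over 2240 of 2322 annotated nucleotides, 82 fewer, against 3 to 17 fewer in the other 9 genes. The shortfall equals the 79 hairpin bases and 3 more, and 3 bases were also missing in 6 of the other genes, although the rows do not name the bases left out. No read count stands for this miRNA. GENCODE also places an 88-nucleotide miRNA gene, *Gm24572*, in *Dgcr8* exons outside the CDS, and the counted 5′UTR was 78 nucleotides shorter than the annotated one.

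The let-7 seed match is CTACCTC, searched on the sense strand of 1 GENCODE M21 transcript per gene, and capitals mark it in the 4 matches found in the *Dicer1* CDS.
*Dicer1* CDS position 2605, chr12:104706556-104706574: actgtgttCTACCTCttaa
*Dicer1* CDS position 3611, chr12:104702801-104702819: acaaccaaCTACCTCatat
*Dicer1* CDS position 3719, chr12:104702693-104702711: taacacatCTACCTCagat
*Dicer1* CDS position 5091, chr12:104694693-104694711: attttggaCTACCTCataa
These are on the minus strand of GRCm38. Of 306 coding sequences within 20% of the length of the *Dicer1* CDS, 41.8% held the 7 letters at least once, and 2, *Dicer1* counted, held them at least 4 times. The *Dicer1* 3′UTR of 3851 nucleotides held no let-7 match, and 20.3% of 758 3′UTRs of like length held one. The miR-103 and miR-107 seed match is ATGCTGC, and the *Dicer1* 3′UTR held it once, at chr12:104690166-104690184 and 1417 nucleotides into the 3′UTR, as ttcatgtaATGCTGCactt. It was also found once in the *Dicer1* CDS, and 53.3% of the coding sequences of like length held it at least once. Of the 3′UTRs of like length, 28.8% held ATGCTGC. Across the 10 genes, 2 3′UTRs held CTACCTC, that of *Ago2* with 3 matches and that of *Ago3* with 1, and 7 held ATGCTGC, where 9.38% and 11.7% of the 3′UTRs of 9202 genes did. The *Ago2* and *Ago3* 3′UTRs are 11064 and 12742 nucleotides long, and 53.3% and 52.6% of 3′UTRs of like length held CTACCTC, and 66.7% and 73.7% held ATGCTGC. For the other 3′UTRs that held ATGCTGC, the share at like length was 60.0% for *Tnrc6b*, 29.5% for *Ago1*, 28.7% for *Ago4* and 11.4% for *Dgcr8*, so the share over all 3′UTRs is too low a background for most of the 7. These matches are letters in the annotated mRNAs, and miRNA levels were not measured in the libraries used here.

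Ribosome profiling sequences the mRNA fragments that translating ribosomes protect, called footprints, and RNA-seq gives the abundance of the mRNA. The exon counts summed to 3549555 for the footprints, and to 10707930 and 14003713 for RNA-seq replicates 1 and 2. Levels are given as RPKM, the estimated count per kilobase counted and scaled to the sum of exon counts in the library, on exons for RNA and on the CDS for footprints. With 1 ribosome profiling library, a footprint value carries an exact Poisson 95% interval, which covers counting error only, and RNA values carry the SD over n = 2 replicates, which may be technical because the labels do not say that they were separate cultures. Marker levels are given on exons in every library, ribosome profiling included. The cells carried the keratinocyte markers, 8 of 8 above 1 RPKM in each library, with *Krt5* as the most abundant. Their summed levels were 7326 RPKM in ribosome profiling and 14443 and 16565 RPKM in the RNA-seq replicates. Fibroblast markers summed to 10.3 and 16.0 RPKM in RNA-seq, led by *Col3a1*, and 6 of 8 were at 0 on exons in ribosome profiling. Of those above 0, *Col1a2* had 0.88 counts, on the 3′UTR and none on the CDS, and *Pdgfra* had 10 on the CDS. Melanocyte markers summed to 5.33 and 5.70 RPKM in RNA-seq, led by *Pmel*, immune markers to 3.75 and 12.0 RPKM, led by *Lyz2*, and endothelial markers to 0.569 and 0.591 RPKM, led by *Kdr*. In ribosome profiling these 3 lists summed to 0.921, 0.508 and 0.724 RPKM on exons, with *Cd3e* and *Cd207* at 0 in every library. The immune sum was 2.48 counts of *Cd74*, on the 5′UTR and none on the CDS. The 5 *Tyr* counts in the melanocyte sum were all on the 3′UTR. RNA of *Pmel* also lay mostly there, at 34.5 and 35.5 RPKM on 224 nucleotides of 3′UTR against 1.57 and 1.63 RPKM on the CDS.

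Of the modified genes, *Hras* had 128 footprints on the CDS and RNA levels of 48.5 and 50.9 RPKM. It had a further 245 footprints on 206 nucleotides of 5′UTR, 65.7% of those on the 2 regions. *Tgfbr2* had 193 footprints on the CDS, 31.3 on the 5′UTR and RNA levels of 61.4 and 59.0 RPKM. The rows pool a whole gene, so they show neither the altered *Hras* codon nor a missing exon of *Tgfbr2*.

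*Drosha*, which encodes the RNase III enzyme of the Microprocessor, was among the most abundant of the 10 mRNAs. The gene lies at chr15:12824815-12935291 on the plus strand of GRCm38, the build of all positions given here, and its counted CDS of 4119 nucleotides covers 99.9% of the annotated one. Its RNA level was 19.4 RPKM in replicate 1 and 18.1 RPKM in replicate 2 (18.7 ± 0.932, SD, n = 2). It had 211 footprints on the CDS, which is 14.4 RPKM with an interval of 12.5 to 16.5. *Drosha* RNA stood at the 56.7th percentile of the 9863 genes that passed the filters and its footprints at the 42.7th. To pass, a gene needed more than 1 RPKM in each RNA-seq replicate, a mean normalised count above 25 and at least some footprints on its CDS. *Dgcr8*, which encodes the double-stranded RNA-binding partner of this enzyme from chr16:18253948-18289246, had RNA levels of 9.58 and 9.46 RPKM and 51.6 footprints, which is 6.49 RPKM with an interval of 4.84 to 8.52. *Dgcr8* was lower than *Drosha* in all 3 libraries. Per length of CDS, *Drosha* exceeded *Dgcr8* 2.22-fold in footprints and 1.83-fold and 1.69-fold in RNA. *Drosha* took 80.3% of the CDS footprints of the pair (Wilson 95% interval 75.1 to 84.7) and 77.1% (74.5 to 79.4) and 75.7% (73.4 to 77.8) of their CDS RNA counts, so the intervals overlapped and no shift between the subunits was detectable at this depth.

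Translational efficiency (TE) divides the footprint level of a gene by its mean RNA level, and is given on the log2 scale relative to the median of the 9863 genes. Log2 TE was -0.72 for *Drosha*, with an interval of -0.92 to -0.53 from the footprints, and -0.89 for *Dgcr8*, with -1.32 to -0.50. Both Microprocessor mRNAs were below the median gene, and their intervals overlapped. *Dgcr8* exons overlap *Trmt2a* on the opposite strand over 825 nucleotides and the same-strand gene *Gm49776* over 326 nucleotides of CDS, so part of its counts cannot be assigned with certainty.

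*Xpo5* (chr17:46202782-46243598, plus strand), the nuclear export receptor for miRNA hairpins, had the highest footprint density of the 10 genes, with an interval that overlapped that of *Ago2*. It had 437 footprints, which is 34.2 RPKM with an interval of 31.1 to 37.6, and RNA levels of 14.4 and 13.9 RPKM. Its log2 TE was 0.93 with an interval of 0.80 to 1.07, and 77.9% of genes were at or below it. RNA was counted over 31 of 1327 annotated nucleotides of the *Xpo5* 3′UTR, so its RNA level rests almost entirely on the CDS.

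*Dicer1* (chr12:104687742-104751952, minus strand), the cytoplasmic RNase III enzyme, had RNA levels of 12.1 and 11.7 RPKM (11.9 ± 0.268, SD, n = 2). It had 197 footprints, which is 9.71 RPKM with an interval of 8.40 to 11.2. Its log2 TE was -0.63 with an interval of -0.84 to -0.43, an interval that overlapped those of *Drosha* and *Dgcr8*. That is 1.55-fold below the median gene. The exporter was therefore apart from *Drosha*, *Dgcr8* and *Dicer1* on the TE scale, since its interval overlapped none of theirs, while its RNA level lay between those of *Drosha* and *Dicer1*.

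The Argonaute genes have nearly equal counted CDS lengths of 2571 to 2583 nucleotides and differed widely in level. *Ago3*, *Ago1* and *Ago4* lie side by side on the minus strand, at chr4:126331704-126429556, chr4:126435012-126468583 and chr4:126489541-126533472, and *Ago2* lies at chr15:73095844-73184935. *Ago2*, the Argonaute with slicer activity, had RNA levels of 18.8 and 17.5 RPKM and 265 footprints, which is 28.9 RPKM with an interval of 25.5 to 32.6. *Ago1* had RNA levels of 6.79 and 6.10 RPKM and 34 footprints, which is 3.73 RPKM with an interval of 2.58 to 5.21. *Ago3* had RNA levels of 2.13 and 1.56 RPKM and likewise 34 footprints, which is 3.71 RPKM with an interval of 2.57 to 5.19. *Ago1* and *Ago3* thus had footprint densities that could not be told apart, although the RNA level of *Ago1* was higher in both replicates. The third gene of the cluster was the lowest of the 10 in every library. *Ago4* had 2.94 and 7 RNA counts and 1 footprint. Its RNA level of 0.0421 and 0.0767 RPKM was far below the filter, and with 1 footprint, for which the interval of 0.00276 to 0.608 RPKM spans over 2 orders of magnitude, no TE is given for it.

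Within the family, *Ago2* took 79.3% of the CDS footprints (Wilson 95% interval 74.7 to 83.3). Its share of the CDS RNA counts was 66.8% (63.3 to 70.2) in replicate 1 and 71.0% (68.1 to 73.8) in replicate 2. *Ago1* took 10.2% of the footprints (7.38 to 13.9) and 22.3% (19.3 to 25.5) and 22.0% (19.5 to 24.7) of the RNA. The *Ago3* share was 10.2% (7.38 to 13.9) in footprints, 10.8% (8.68 to 13.3) in RNA-seq replicate 1 and 6.77% (5.35 to 8.53) in replicate 2. The *Ago2* share was thus highest and the *Ago1* share lowest in footprints. These intervals cover counting error only, and those of *Ago3* in the 2 RNA-seq replicates did not overlap each other either, so with 1 ribosome profiling library a change in share cannot be told from the spread between libraries. The Argonaute coding sequences resemble each other and other loci. Of the 28-base words of the *Ago2* CDS, 37.4% also occur in transcripts of 6 other genes, of which *Ago1* is 1, against 6.64% for *Ago1*, 5.59% for *Ago3* and 0.430% for *Ago4*. A footprint is about as short as such a word, so the *Ago2* counts in particular depend on how shared reads were placed, and the effect of this on the shares was not tested.

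**Figure D1:**
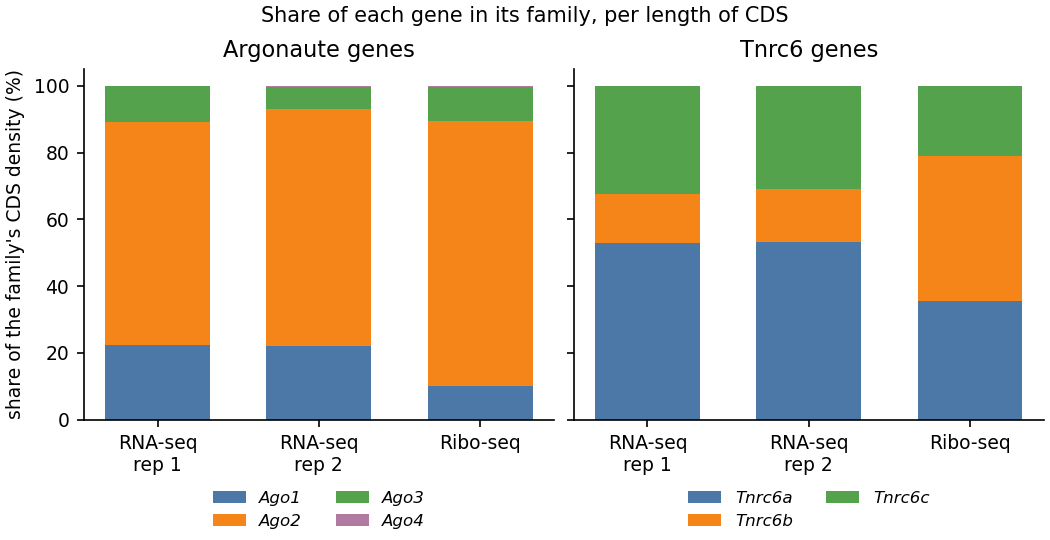
Share of each gene in the summed CDS density of its family (%, counts per counted length of CDS) in the 3 SCCc libraries, for the 4 Argonaute genes and the 3 Tnrc6 genes. The *Ago2* block is larger in ribosome profiling (79.3%) than in RNA-seq (66.8% and 71.0%), and the *Tnrc6b* block is 43.4% in ribosome profiling against 14.7% and 15.8% in RNA-seq.

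The log2 TE of *Ago2* was 0.33 with an interval of 0.15 to 0.50, and that of *Ago3* was 0.67 with 0.14 to 1.15. Of the 9 genes that passed, *Ago3* had the RNA that differed most between replicates, by a log2 ratio of -0.45 of replicate 2 to replicate 1 where the SD over all 9863 genes was 0.20, and its log2 TE was 0.46 against replicate 1 and 0.90 against replicate 2. *Ago1* had a log2 TE of -1.13 with an interval of -1.66 to -0.65, 2.19-fold below the median gene. The intervals of *Ago1* and *Ago2* did not overlap, and neither did those of *Ago1* and *Ago3*.

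*Tnrc6a* and *Tnrc6b* encode scaffold proteins that bind Argonaute through glycine-tryptophan repeats and recruit deadenylase complexes, from genes at chr7:123123885-123195296 and chr15:80711313-80941085 on the plus strand. *Tnrc6a* had RNA levels of 19.2 and 18.3 RPKM, as high as those of *Drosha* and *Ago2*. It had 160 footprints, which is 7.92 RPKM with an interval of 6.74 to 9.24. *Tnrc6b* had RNA levels of 7.56 and 6.81 RPKM and 185 footprints, which is 9.63 RPKM with an interval of 8.29 to 11.1. *Tnrc6a* was thus higher in RNA in both replicates, while the footprint intervals overlapped and the footprint densities could not be told apart. Their log2 TE was -1.59 for *Tnrc6a*, with an interval of -1.82 to -1.36, and 0.08 for *Tnrc6b*, with -0.14 to 0.29. *Tnrc6a* was the lowest of the 9 genes with a TE and 3.01-fold below the median gene.

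*Tnrc6c*, the third paralog, had RNA levels of 11.5 and 10.3 RPKM and 93.6 footprints, with a log2 TE of -1.58 and an interval of -1.89 to -1.29, so it was beside *Tnrc6a*. Of the CDS footprints of the 3 paralogs, *Tnrc6b* took 42.3% (Wilson 95% interval 37.7 to 46.9), and of the CDS RNA counts 14.1% (12.8 to 15.5) and 15.2% (14.0 to 16.5). Only 0.148% of the 28-base words of the *Tnrc6b* CDS and 2.10% of those of the *Tnrc6a* CDS occur in transcripts of other genes.

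**Figure D2:**
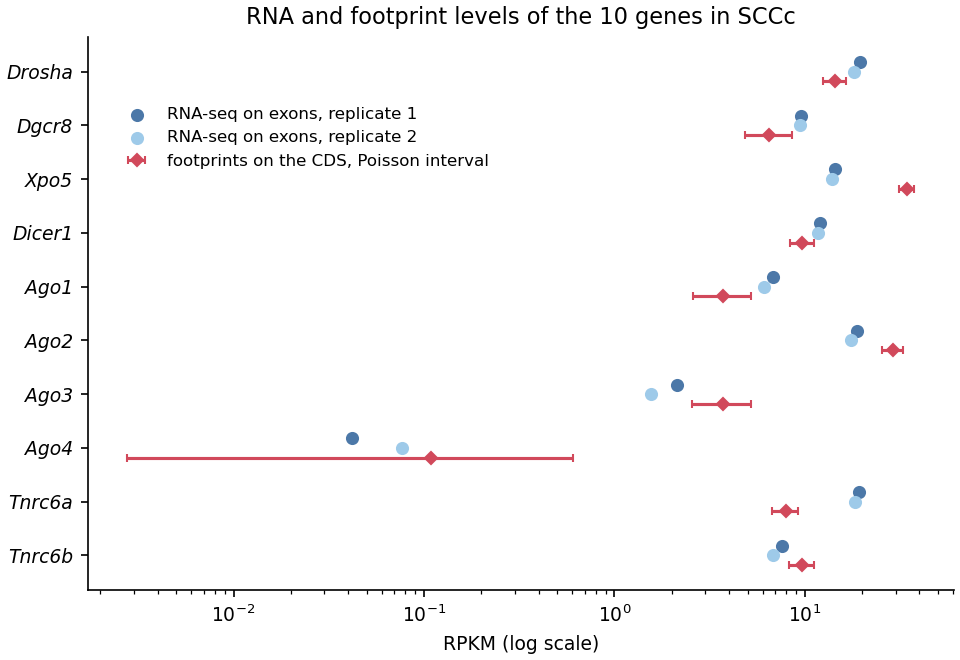
RNA level on exons in each RNA-seq replicate and footprint level on the CDS of the 10 genes in SCCc (RPKM, log scale), with bars for the exact Poisson 95% interval of the footprints. Footprints lie to the right of both RNA values for *Xpo5*, *Ago2*, *Ago3* and *Tnrc6b* and to the left for *Drosha*, *Dgcr8*, *Dicer1*, *Ago1* and *Tnrc6a*, while *Ago4* lies below 1 RPKM in every library.

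In order of RNA level, *Tnrc6a*, *Drosha* and *Ago2* came first with replicate ranges that overlapped. Below them *Xpo5*, *Dicer1*, *Dgcr8*, *Tnrc6b*, *Ago1*, *Ago3* and *Ago4* followed, each with a replicate range apart from the one above it. The median of the 10 was 10.7 RPKM, and that of the 9 that passed was 11.9 RPKM beside 15.3 RPKM over all 9863 genes. In order of TE, with the replicate spread added to the footprint interval, *Xpo5*, *Ago3*, *Ago2* and *Tnrc6b* formed an upper run in which neighbours overlapped. *Dicer1* was apart from *Tnrc6b*, and from *Dicer1* through *Drosha*, *Dgcr8* and *Ago1* to *Tnrc6a* neighbours overlapped again. These runs depend on the division by length. Without it *Drosha* at 0.14 and *Dicer1* at -0.40 lay above *Tnrc6b* at -0.54, *Drosha* also lay above *Ago3* at 0.11 and *Ago2* at -0.30, and *Ago1* at -1.58 below *Tnrc6a* at -1.15.

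No gene of the 9 had a log2 TE above 1, where 20.8% of all genes and 6.45% of genes of like CDS length did, and 2 of 9, *Ago1* and *Tnrc6a*, were below -1, where 21.1% of all genes were. The share below -1 is close to that of all genes. The median log2 TE of the 9 was -0.63. Genes with long coding sequences were lower as a whole. The 2107 genes with a counted CDS of 2240 to 5718 nucleotides, the range of the 10 genes, had a median log2 TE of -0.55, and 33.9% of them were below -1. Relative to those genes, a comparison added after the values were seen, the median of the 9 was -0.080. At this reference the median of the 9 genes lay near that of genes of like CDS length, with *Xpo5* and *Ago3* above 1, where 14.7% of those 2107 genes and 35.1% of all genes were, and *Tnrc6a* below -1, where 18.9% and 12.1% were.

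**Figure D3:**
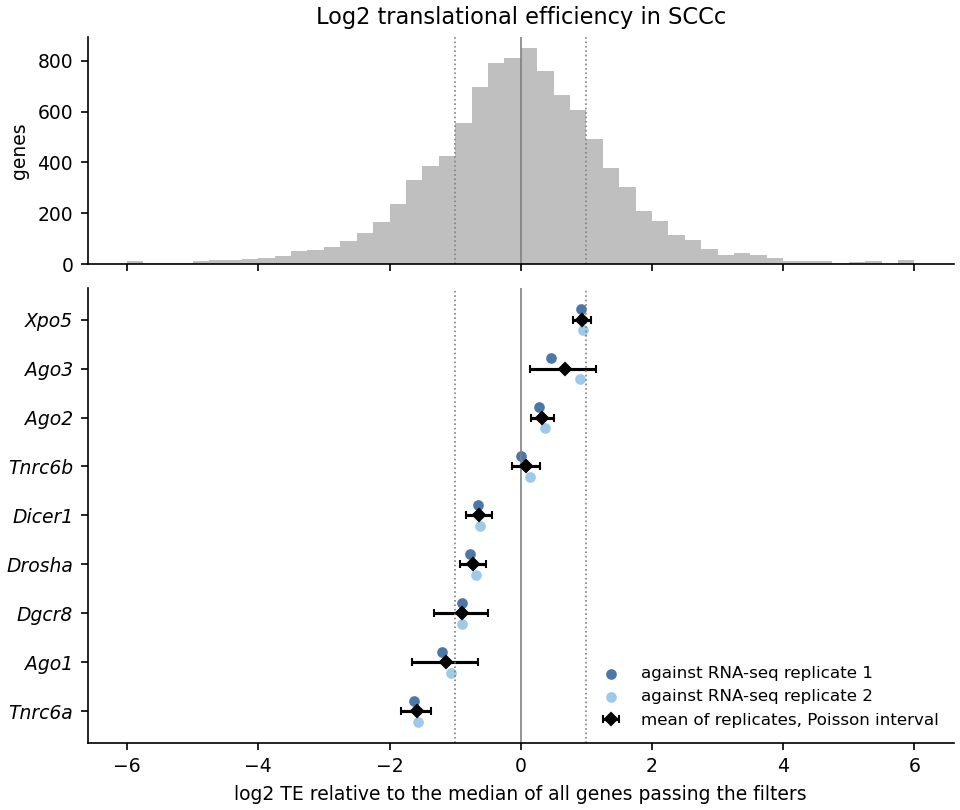
Above, the number of genes by log2 TE for the 9863 genes that passed the filters, with values beyond 6 placed in the end bins. Below, log2 TE of the 9 genes with the footprint interval (bars, 95%) and the value against each RNA-seq replicate (dots), from 0.93 for *Xpo5* to -1.59 for *Tnrc6a*, with dotted lines at 1 and -1.

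Footprints on the 5′UTR were compared with those on the CDS, per nucleotide counted, in the 8 of 10 genes with at least 60 counted nucleotides of both regions and at least 10 footprints on the CDS. The *Ago1* row held no counted 5′UTR and *Ago4* did not pass the filters. The 5′UTR was the denser region in 4 of the 8, *Ago3*, *Dgcr8*, *Drosha* and *Xpo5*, and in 17.4% of the 7441 genes examined. *Dgcr8* had 16.4 footprints on 346 nucleotides of 5′UTR, a density 2.06-fold that of its CDS with an exact binomial 95% interval of 1.06 to 3.54. Its interval was the only one of the 8 that lay above 1, as in 4.99% of all genes examined. For *Dgcr8*, 24.1% of the footprints on 5′UTR and CDS were on the 5′UTR (Wilson 95% interval 15.5 to 35.5), beside a median of 5.13% over all genes examined.

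*Drosha* had 23.0 footprints on 280 nucleotides of 5′UTR, a ratio of 1.61 with an interval of 0.995 to 2.47. *Ago3* had 8 on 256 nucleotides, a ratio of 2.37 with an interval of 0.948 to 5.22, and *Xpo5* had 10.6 on 66 nucleotides, a ratio of 1.32 with 0.680 to 2.48. These 3 could not be told from an equal density at this depth. *Dicer1* had 6 footprints on the 5′UTR and a ratio of 0.624 with an interval of 0.226 to 1.38, and *Ago2*, *Tnrc6b* and *Tnrc6a* had ratios of 0.315, 0.273 and 0.181, with intervals that lay below 1 for these last 3. The median ratio over all genes examined was 0.385. By this ratio *Xpo5* was at the 89.1st percentile of the genes examined, *Drosha* at the 92.3rd, *Dgcr8* at the 95.5th and *Ago3* at the 96.9th.

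In RNA-seq, with both replicates summed, the ratio of 5′UTR to CDS density was 1.06 for *Drosha*, 0.867 for *Xpo5*, 0.803 for *Ago3* and 0.442 for *Dgcr8*, beside a median of 0.297 over all genes examined. *Drosha* therefore had even coverage of both regions in RNA, whereas in *Dgcr8* the 5′UTR was the sparser region in RNA and the denser in footprints. *Ago2* had 0.752 and 1.17 RNA counts on the 165 nucleotides of its 5′UTR, which in the annotated transcript has a G and C content of 83.7%, and 5.33 footprints. With so few RNA counts, no ratio of footprints to RNA is given for that region.

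**Figure D4:**
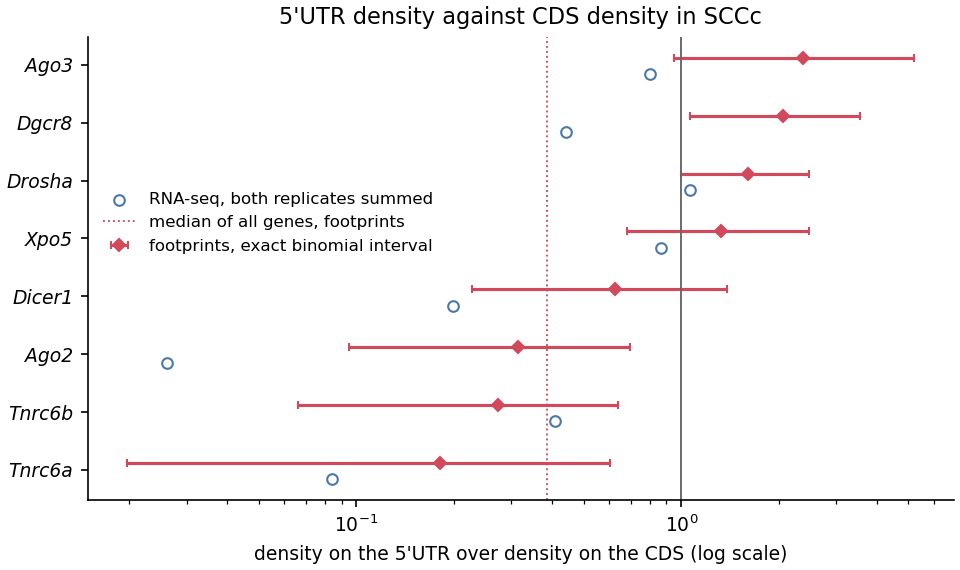
Density on the 5′UTR over density on the CDS (log scale) for the 8 genes examined in SCCc, as footprints with the exact binomial 95% interval and as RNA-seq counts of both replicates summed. *Dgcr8* is the only gene whose footprint interval lies above 1, and the dotted line marks the median of all genes for footprints, 0.385.

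The annotated 5′UTRs of these genes differ in the number of ATG triplets before the start codon. Capitals mark the ATG, and the start codon of the CDS is shown beside the nearest upstream ATG of the 3 genes with the highest ratio.
*Ago3* start, chr4:126429280-126429292: ccatgaATGgaaa
*Ago3* upstream, chr4:126429284-126429296: agctccATGaatg
*Dgcr8* start, chr16:18284410-18284422: cataatATGgaga
*Dgcr8* upstream, chr16:18284464-18284476: agatttATGtaag
*Drosha* start, chr15:12827270-12827282: atcgagATGcaag
*Drosha* upstream, chr15:12827242-12827254: cggaagATGtagc
*Ago3* and *Dgcr8* are on the minus strand of GRCm38 and *Drosha* on the plus strand. *Drosha* has 6 upstream ATGs in 280 nucleotides, each with a stop codon before the start of the CDS, and 2.09% of 1674 5′UTRs within 20% of that length hold at least 6. *Dicer1* also has 6, in 279 nucleotides, of which 5 are closed before the start of the CDS and 1 runs past it in another frame. *Dgcr8* has 5 in 424 nucleotides, all closed, and 15.5% of 1074 5′UTRs of like length hold at least 5. *Ago3* has 1, which lies 4 nucleotides before the start and overlaps it in another frame. *Xpo5* and *Ago2* have none, and *Tnrc6a* and *Tnrc6b* have 1 each. Among the 8 genes the ones rich in upstream ATGs were thus *Drosha*, *Dicer1* and *Dgcr8*, of which only *Dgcr8* had a 5′UTR density that could be told from that of its CDS. The ATGs are on the annotated 5′UTR, while densities rest on the counted one, which was of equal length in *Drosha* and *Dicer1*. The counted length was 346 nucleotides against 424 annotated in *Dgcr8*, 434 against 147 in *Tnrc6a*, 480 against 290 in *Tnrc6b* and 66 against 139 in *Xpo5*. At single upstream ATGs footprints were not counted here.

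A purine 3 bases before the ATG together with a G after it, the usual strong context, was present at the start codons of *Dgcr8*, *Xpo5*, *Dicer1*, *Ago1* and *Ago4*, and in 46.7% of 9202 genes. The start codons of *Drosha*, *Ago2*, *Ago3*, *Tnrc6a* and *Tnrc6b* lacked 1 or both of these bases. Of the upstream ATGs, 1 each in *Drosha*, *Dicer1* and *Tnrc6a* has both, that of *Drosha* being ttcaacATGggca at chr15:12826126-12826138.

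Several of these mRNAs have long 3′UTRs, and RNA was therefore also compared between regions. Per nucleotide, the log2 ratio of RNA density on the 3′UTR to that on the CDS was 0.48 and 0.23 in *Tnrc6b* and 0.39 and 0.08 in *Ago1*, in replicates 1 and 2. It was 0.25 and -0.12 in *Ago2*. These were above the medians over 9447 genes of -0.62 and -0.75, and the 3′UTR density exceeded that of the CDS in 3 of 8 genes in replicate 1, where 19.5% of all genes did, and in 2 of 8 in replicate 2, where 13.5% did. *Dicer1* had -1.01 in both replicates and *Drosha* -2.38 and -3.43, the latter over 172 counted nucleotides with 7.11 and 4.13 counts. With RNA counted on the CDS alone, log2 TE moved to -0.68 for *Ago1*, 0.64 for *Ago2*, 0.59 for *Tnrc6b*, 1.22 for *Xpo5* and -1.49 for *Tnrc6a*. Part of each move is shared by all genes, because the median gene to which TE is centred moved too. *Xpo5* shows this, since its RNA levels were 14.5 and 14.0 RPKM on the CDS beside 14.4 and 13.9 RPKM on exons. On that measure *Ago1* was not below -1 and *Xpo5* was above 1, and 1 gene was then past the threshold in each direction, where 18.3% of all genes were above 1 and 19.5% below -1.

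The counted 3′UTR was shorter than the annotated one in *Ago2*, at 5286 of 11064 nucleotides, and in *Ago3*, at 4799 of 12742, and close to it in *Dicer1*, *Ago1*, *Ago4* and *Tnrc6a*. Reads further downstream of the *Ago2* and *Ago3* coding sequences are not in these values.

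Genes that work with the 10 were described from lists for each step, 59 genes in all, of which 52 passed the filters. Of these 52, 10 had a log2 TE above 1 and 10 below -1, where 20.8% and 21.1% of all genes were, with a median of -0.09, so the shares past these thresholds were close to those of all genes. The counts given below for single lists have the same background. Among the Microprocessor cofactors, 9 of 9 passed, with 4 above 1 and none below -1, from *Srsf3*, a splicing factor that binds near hairpins, at 4.38 to *Mettl3*, the mRNA methyltransferase subunit, at -0.90. The median of this list was 0.62. The export and Dicer partners ran from *Ran*, the GTPase that exportin 5 binds with its cargo, at 3.59 to *Prkra* at -0.82. *Tarbp2*, which like *Prkra* is a double-stranded RNA-binding partner of Dicer, was at 0.43 with an interval of -0.18 to 0.97 and RNA levels of 10.3 and 12.8 RPKM, close to those of *Dicer1*. *Prkra* had RNA levels of 33.6 and 33.4 RPKM, higher than those of *Dicer1* and *Tarbp2* in both replicates.

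The Argonaute loading list, 5 chaperones with *Tsn* and *Tsnax*, the subunits of the C3PO nuclease, had a median log2 TE of 0.86 over 7 genes, from *Ptges3*, the Hsp90 co-chaperone p23, at 4.74 to the immunophilin *Fkbp5* at -0.63, and 3 were above 1, *Tsn* among them. *Ptges3* and *Srsf3* were the highest of all lists. Their counted coding sequences are short, at 174 and 115 nucleotides, and with RNA counted there, 4.78 and 11.9 counts for *Ptges3* and 17.4 and 24.7 for *Srsf3*, log2 TE was 8.10 and 5.08. Counted and annotated lengths were not compared for these 2 genes, so the counted CDS may be only part of the whole. RNA of *Ptges3* was 2.57 and 4.89 RPKM on the counted CDS beside 62.8 and 57.8 RPKM on the 3′UTR. For *Srsf3* it was 14.1 and 15.4 RPKM beside 20.3 and 17.3 RPKM. Both TE values are therefore uncertain. At the other end, *Pabpc1*, the poly(A)-binding protein, at -2.45 and *Zswim8*, the ubiquitin ligase subunit that acts in target-directed miRNA decay, at -2.26 were the lowest. Of the deadenylation genes, which include *Tnrc6c*, 14 passed, with a median of -0.33, 1 above 1, the CCR4-NOT subunit *Rqcd1* at 1.20, and 4 below -1. Of the decapping and decay genes 11 passed, with a median of -0.36, from *Ddx6*, the helicase that links deadenylation to decapping, at 0.97 to the helicase *Mov10* at -1.83, and 3 were below -1. The *Mov10* value rests on 7 footprints. Of the tailing and turnover genes 7 passed, with a median of -0.80, from the exonuclease *Eri1* at 1.89 to *Zswim8*, and 3 were below -1. Of the 4 export and Dicer partners, 2 were above and 2 below 0. The lists also differ in the median length of the counted CDS. It was 658.5 nucleotides in the export and Dicer partners, 1368 in the Argonaute loading list, 1690 in deadenylation and 1844 in the cofactors. It was 2004 in decapping and decay, 2853 in tailing and turnover and 3598 in the 9 genes. Genes with long coding sequences were lower in TE as a whole. The median log2 TE of the export and Dicer partners was 0.03. For the genes of these lists, counted lengths were not compared with annotated ones. The part of length in the differences between these medians was not tested.

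**Figure D5:**
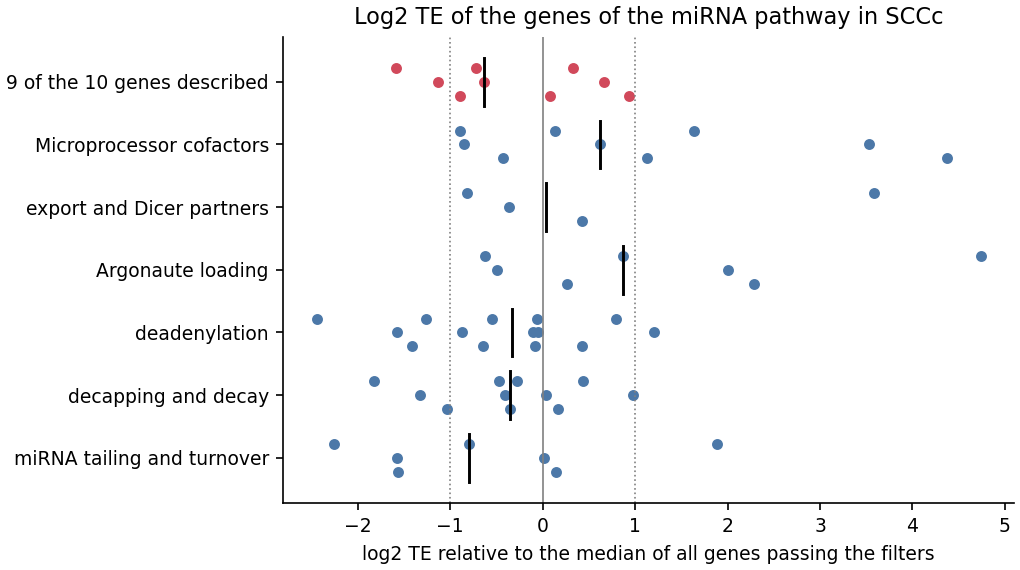
Log2 TE of 9 of the 10 genes (red) and of the genes of 6 miRNA pathway lists that passed the filters (blue), 1 dot per gene, with a black bar at each median. The medians run from 0.86 for Argonaute loading to -0.80 for tailing and turnover, and that of the 9 genes is -0.63.

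No Piwi Argonaute gene passed, and the genes of this paragraph were picked after their values were seen. *Piwil1* had 0.586 ribosome profiling counts, on the 3′UTR, and no RNA count, *Piwil4* had at most 0.347 counts in a library and *Piwil2* 3 and 5 RNA counts with no footprint. The let-7 regulators *Lin28a* and *Trim71* had no counts in any library, and *Lin28b* had 1 and 2 RNA counts and 12 ribosome profiling counts, all of them on the 3′UTR and none on the CDS. A count of 0 allows up to 3 counts, which is 2.80e-05% of the exon counts in RNA-seq replicate 1 and 8.45e-05% in ribosome profiling. Of the miRNA host genes listed as such, *Mir22hg* had RNA levels of 12.2 and 12.1 RPKM, *Mir17hg* 3.14 and 3.01 RPKM and *Mirlet7bhg* 0.713 and 0.723 RPKM, and *Mir143hg* had 1 count in each replicate. These are long host RNAs whose counts do not measure the mature miRNAs.

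By Euclidean distance over log2 RPKM in the 3 libraries among the 9863 genes, the genes nearest to *Dicer1* were *Camsap1* (0.0615), *Arid2* (0.0811) and *Spast* (0.0893). Those nearest to *Ago2* were *Rprd1a* (0.0804), *D1Ertd622e* (0.0821) and *B230219D22Rik* (0.107). With 3 libraries of 1 condition, such likeness is of level only.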

How the data were processed

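One condition was analysed, SCCc, with 1 ribosome profiling library and 2 RNA-seq replicates. Per the submitters' notes and the paper's methods, the authors trimmed reads with Trim Galore, aligned them to GRCm38 with STAR 2.6.1, removed ribosome profiling reads of ribosomal, mitochondrial and transfer RNA with Bowtie2 2.4.1, and counted with Plastid. The deposited values are estimated counts per gene and region, made by the authors without normalization and not always whole, and whether strand was used is not given in the sources used here. The RPKM values deposited by the authors rest on library totals larger than the exon counts, so RPKM was computed again from counts, counted lengths and exon sums.

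The 10 genes and the pathway lists were chosen with earlier results of these data known. From the pathway lists, the extremes of log2 TE overall and per list were named, and *Tnrc6c*, *Tarbp2* and *Prkra* always, with the 3 genes nearest to *Dicer1* and to *Ago2* and the modified genes. Counts were rounded for the size factors behind the mean normalised count. No test between conditions was possible with 1 condition. The replicates differed by more than sampling noise (chi-square of 7.52 per degree of freedom over 9863 genes, which compares these libraries only). RNA levels are given for each replicate, TE uses their mean, and RNA ratios of 5′UTR to CDS use their sum. Alternatives covered each replicate left out, a pseudocount of 1 RPKM, other regions, filters and scalings (DESeq2 1.42.0, edgeR 4.0.16), and 1 further reference added after the values were seen. Python 3.11.15 with numpy 2.4.6, pandas 2.3.3 and scipy 1.17.1 was used, in a calculation tested on simulated data. Gene structures and mRNA sequences came from GENCODE M21, taking the basic protein-coding transcript with the longest CDS, and miRNAs from RefSeq (GRCm38.p6). A single library shows a gene only from about 3 counts.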

Additional observations from a re-analysis of the deposited data

Results flagged for a closer look

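Footprints on the 3′UTR, where no translation is annotated, were counted above the 3 counts that a count of 0 allows in 4 of the 10 genes. The share was 33.3% of 9539 genes that passed the filters, a set without *Ago4*, which did not pass, and *Xpo5*, whose counted 3′UTR was too short. This threshold takes no account of 3′UTR length. *Ago2* had 16 footprints on 5286 counted nucleotides of 3′UTR, *Tnrc6b* 11.6 on 10886, *Tnrc6a* 10.6 on 2328 and *Dicer1* 9 on 3854. Per nucleotide this was 16.2% of the CDS density in *Tnrc6a*, 6.78% in *Dicer1*, 3.12% in *Tnrc6b* and 2.95% in *Ago2*, beside a median of 1.57% over 9539 genes with at least 60 counted nucleotides of 3′UTR. The other 6 genes had at most 1.68 footprints there. The source of these reads was not tested.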

How the results depend on the processing

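The median log2 TE of the 9 genes that passed, -0.63, kept its sign under every alternative run, of which library scaling largely cancels when TE is centred. It was -0.65 to -0.62 with either RNA-seq replicate left out, -0.58 with a pseudocount of 1 RPKM, -0.47 with RNA counted on the CDS, -0.40 without division by length, -0.67 for the 6 genes with 100 or more counts per library, -0.67 when 1 count per library was enough, -0.68 with a filter on the deposited RPKM (8 genes, without *Ago3*), and -0.080 relative to genes of like CDS length, which was added after seeing the data. The number above 1 rose from 0 to 1 with RNA counted on the CDS (18.3% of all genes) and without division by length (19.2%), and to 2 relative to genes of like CDS length (35.1%, and 14.7% of those genes). The number below -1 fell from 2 to 1 with the pseudocount (18.5% of all genes), with RNA counted on the CDS (19.5%) and relative to genes of like CDS length (12.1%, and 18.9% of those genes). It was 3 of 6 with at least 100 counts, *Drosha*, *Dicer1* and *Tnrc6a*, where 15.7% of 4829 genes were. There TE was centred on the median of those 4829 genes, which lowered all 6 genes by the same amount. *Drosha* moved from -0.72 to -1.11, *Dicer1* from -0.63 to -1.03 and *Xpo5* from 0.93 to 0.54. *Drosha* and *Dicer1* thus passed -1 through the new reference, with their counts unchanged. Without division by length *Ago2* and *Tnrc6b* moved to -0.30 and -0.54 and *Drosha* to 0.14.

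Of the genes denser on the 5′UTR, 4 of 8 became 2 of 6 with at least 100 footprints on the CDS, which removed *Dgcr8* and *Ago3* from those examined and where 10.4% of 3898 genes were, and 7 of 8 when each region was divided by its RNA density, where 56.5% of all genes were. These 7 count *Ago2*, whose 5′UTR held too few RNA counts, 0.752 and 1.17, for a usable ratio. With at least 30 footprints on the 5′UTR no gene of the 10 was left. The median RNA level of 10.7 RPKM was 10.6 to 10.8 with a replicate left out, 12.6 on the CDS and 2.27 as deposited. Few footprints limit *Ago4*, *Ago1*, *Ago3* and *Dgcr8*. No paired analysis was possible because only 1 ribosome profiling library of 1 condition was analysed. Apart from the settings named, the cause of these shifts was not tested.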
